A study of Rattus norvegicus with 8 samples.

Results

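Hepatocyte uptake carriers are described here as 8 genes given by symbol: Slc10a1, Slco1a1, Slco1a4, Slco1b2, Slco2a1, Slco2b1, Slc22a7 and Slc22a8. Their probes were found through the RefSeq accession printed for each probe on the array, and each gene had 1 probe, so 8 of 15168 genes and 8 of 30367 probes are described. All 8 probes were well above background on all 8 arrays and passed the filter on dim probes. RNA from 8 liver samples of male rats, 22 weeks old, was hybridised in a single colour, 1 array a sample. High-fat diet for 14 weeks gave 5 samples, labelled NAFLD (non-alcoholic fatty liver disease), and standard chow over the same time gave 3 control samples. The sources used here name no strain and no diet composition, and do not state whether every sample is a separate animal. The p-values therefore cover the spread of these samples, which may be technical. Levels are log2 signals relative to the 75th percentile of the same array, and differences are high-fat minus chow. Array numbers are the replicate numbers of the labels.

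Bile acids, bilirubin, hormones and many drugs reach the hepatocyte from sinusoidal blood through carriers in its basolateral membrane. Slc10a1 encodes NTCP, which couples bile acid uptake to sodium. The Slco genes encode organic anion transporting polypeptides (OATPs), which take up organic anions without sodium, for some of them bile acids. Slco2a1 is the prostaglandin transporter of this family and is known from endothelium rather than from hepatocytes. Slc22a7 and Slc22a8 encode the organic anion transporters OAT2 and OAT3. Inside the cell bile acids are conjugated and then pumped into bile by ABC transporters. The bile acid receptor FXR, its target SHP and the liver factor HNF4 alpha are known to control genes of this pathway.

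The 250 bases before the annotated start of each carrier were read 5′ to 3′ on the strand of the gene, from RefSeq on GRCr8, which held an entry for all 8 carriers. Motifs were searched on both strands there and in 33469 rat promoters of the same length. The nuclear receptor letters AGGTCA lay in 2 of 8 (Slc10a1 and Slco1b2) and in 14.1% of all promoters. The STAT5 letters TTCNNNGAA lay in 2 of 8 (Slco1b2 and Slco2b1) and in 7.67%, and the FOXA letters TGTTTAC in 0 of 8 and in 3.21%. None of the motifs given here contains another. These are matches of letters, chosen after the sequences were seen, and not measured binding sites.

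Slco1b2, Slco1a4 and Slco1a1 follow each other as protein-coding genes on rat chromosome 4. The last 120 bases before the start are shown for Slco1a1 and Slco1a4, since this pair was the most alike of the carriers there. Capitals mark the bases that are identical between them in an alignment of their 250 bases before the start.
Slco1a1, chr4:176681993-176682112, minus strand: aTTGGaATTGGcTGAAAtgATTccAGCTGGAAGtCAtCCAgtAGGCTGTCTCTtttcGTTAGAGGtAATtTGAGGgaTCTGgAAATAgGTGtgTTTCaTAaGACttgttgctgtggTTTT
Slco1a4, chr4:176495847-176495966, minus strand: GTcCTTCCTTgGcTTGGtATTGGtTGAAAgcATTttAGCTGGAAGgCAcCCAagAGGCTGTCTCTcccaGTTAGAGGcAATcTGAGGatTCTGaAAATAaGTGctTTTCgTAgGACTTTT
Of the 250 bases, 176 (70.4%) were identical in the pair. The next most alike pair of carriers, Slco1a1 and Slco2b1, had 142 (56.8%). The probe letters were not used here, and whether the probe of 1 carrier also binds RNA of a family member was not tested.

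All 8 carriers were measured well above background on both diets, and 0 of 8 passed an adjusted p of 0.05 between the diets (limma, Benjamini-Hochberg adjustment over 25627 probes; background 3.45% of probes called, 884 in all). Of these calls 768 were higher and 116 lower on high-fat diet, and after quantile normalization 852 and 307. At an unadjusted p under 0.05, 1 of 8 did (Slco2a1), against 20.1% of all probes. The difference was negative for 8 of 8 carriers, with a median of −0.18, against 49.9% of all probes and a median of 0.00122. That sign went with brightness: 5 of the 8 probes lay in the brightest of 10 equal classes of the probes tested, where 79.0% of differences were negative and the median was −0.24. Of the 8 carriers, 6 lay within 0.1 of the median of their own class. After quantile normalization the median of the carriers was −0.02 and 6 of 8 were negative. With a normexp background the carriers ran from −0.27 to 0.05 while the median of all probes moved to −0.30, so that 8 of 8 lay above that median.

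**Figure D1:**
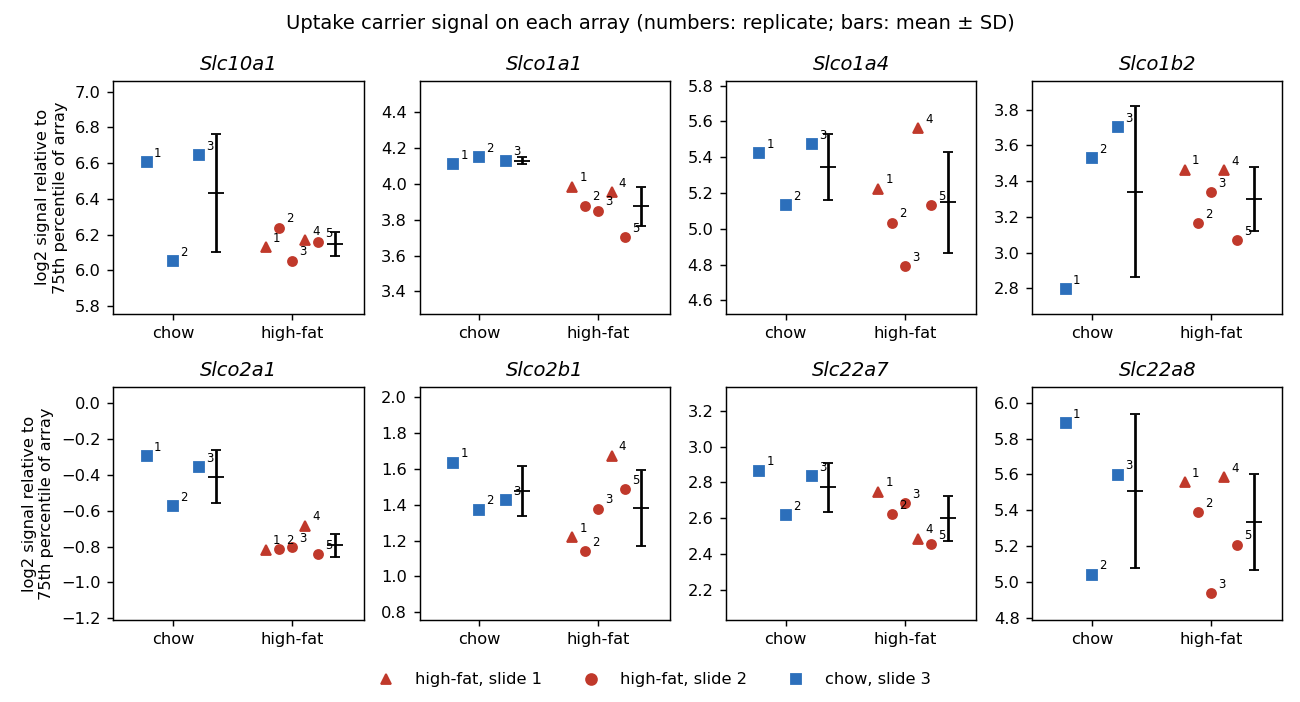
Signal of each carrier on each array (y axis, log2 relative to the 75th percentile of the array, with the same span in every panel), chow as blue squares and high-fat as red triangles (slide 1) or circles (slide 2), numbered by replicate, with mean ± SD beside each group. The groups are apart in Slco1a1 and Slco2a1 and overlap in the other 6 panels.

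The arrays came from 3 slides, taken as the shared scan identifiers in the file headers. High-fat arrays 1 and 4 were on slide 1, scanned on a later day, high-fat arrays 2, 3 and 5 on slide 2, and the 3 chow arrays on slide 3. No slide held both diets, so slide and diet cannot be told apart. Between 79.1% and 92.8% of probes were above background on high-fat diet and between 66.9% and 71.8% on chow, and the number of arrays limits the precision. Leaving out high-fat array 2 or chow array 1, 2 or 3 lowered the 884 calls to 481, 402, 458 or 462. On the scan day that held both diets (high-fat arrays 2, 3 and 5 against the 3 chow arrays), 0 of 8 carriers were called, against 12.3% of probes, and the median of the carriers was −0.30 beside 0.0987 for all probes.

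Slc10a1 (NTCP), the main sodium-dependent bile acid carrier of the hepatocyte, read 6.13, 6.24, 6.06, 6.17 and 6.16 on high-fat arrays 1 to 5. Chow arrays 1 to 3 read 6.60, 6.05 and 6.65. Chow arrays 1 and 3 lay above all high-fat arrays, while chow array 2 was the lowest of all 8, just below high-fat array 3, so the groups overlapped. The means were 6.15 ± 0.07 (SD, n = 5) and 6.43 ± 0.33 (SD, n = 3), a difference of −0.28 ± 0.17 (SE, limma adjusted p = 0.393). The 95% interval reached from 1.59-fold lower to 1.07-fold higher on high-fat diet. Slc10a1 was the only carrier printed in 10 spots on each array. The SD between its spots was 0.0796 to 0.183 on the log2 scale within an array, which does not cover the scaling between arrays. The 75th percentile that each value was set against was 300.1, 559 and 278 (signal intensity) on chow arrays 1 to 3, and before it was applied chow array 2 had the highest Slc10a1 signal of the 3. In the authors' deposited table the 3 chow arrays read 15.54, 15.50 and 15.50 (log2). Leaving out chow array 2 gave a difference of −0.47 (adjusted p = 0.136). Leaving out chow array 1 gave −0.20 (0.708) and leaving out chow array 3 gave −0.18 (0.742), and after quantile normalization it was −0.0015 (adjusted p = 0.996).

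Markers of the hepatocyte were measured beside Slc10a1. Of the 8 hepatocyte markers (among them albumin, Alb, and transthyretin, Ttr) 8 were above background on all 8 arrays and tested, 0 passed and 8 had negative differences, with a median of −0.37, beside 79.0% and −0.24 for all probes of the brightest class. Their summed level, in multiples of the 75th percentile, was 577 to 677 on the high-fat arrays. It was 944, 602 and 988 on chow arrays 1 to 3, so that the chow array with the lowest Slc10a1 signal also had the lowest hepatocyte sum of the 3 (exact permutation p = 0.0536 between diets, two-sided; 0.214 adjusted over 8 marker lists). Both measures share the 75th percentile of the array as divisor. The part of these markers in the result was not tested. In bulk liver RNA fewer cells of a type and less RNA per cell cannot be told apart.

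**Figure D2:**
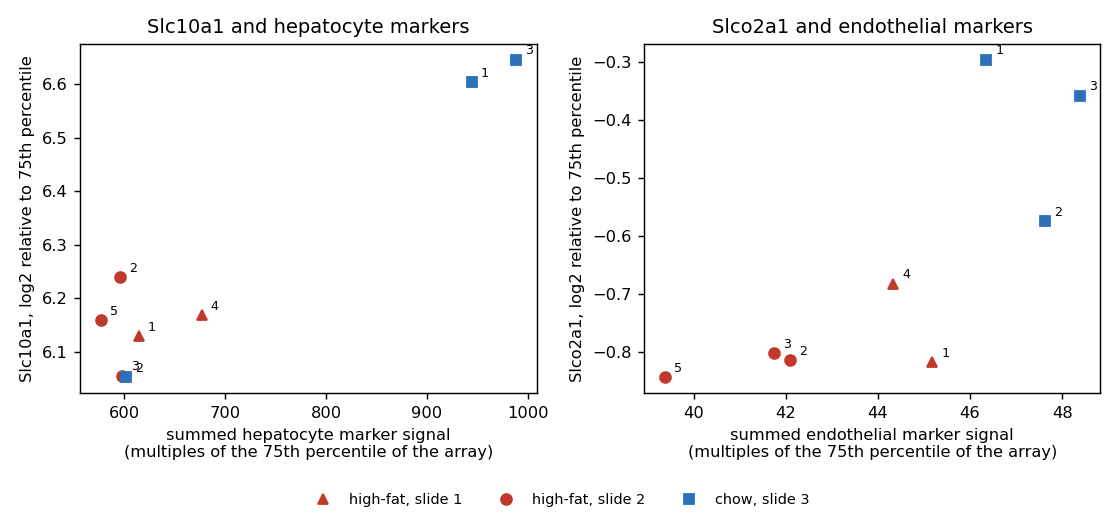
Left, Slc10a1 signal (y axis, log2 relative to the 75th percentile) against the summed signal of 8 hepatocyte markers (x axis, multiples of the 75th percentile), 1 point for each array; right, Slco2a1 against the summed signal of 5 endothelial markers. Chow arrays 1 and 3 stand apart at hepatocyte sums of 944 and 988, while chow array 2, at 602, lies among the high-fat arrays. The endothelial sums are 39.4 to 45.2 on high-fat and 46.4 to 48.4 on chow arrays.

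Slco1a1 (Oatp1), an organic anion carrier that is known to be higher in male than in female rodent liver, read 3.98, 3.88, 3.85, 3.96 and 3.70 on high-fat arrays 1 to 5. With chow, arrays 1 to 3 read 4.11, 4.15 and 4.13. Every high-fat array lay below every chow array, and the chow arrays differed little among themselves. Groups did not overlap in 2 of the 8 carriers, both lower on high-fat diet, against 16.9% of all probes (8.97% lower and 7.94% higher). The means were 3.87 ± 0.11 (SD, n = 5) and 4.13 ± 0.02 (SD, n = 3), a difference of −0.26 ± 0.13 (SE, limma adjusted p = 0.313), with an interval from 1.47-fold lower to 1.03-fold higher. After quantile normalization the difference was −0.06 (adjusted p = 0.814) and the groups overlapped. In the authors' deposited table chow arrays 1 to 3 read 13.22, 13.42 and 13.17 (log2) and the high-fat arrays 13.12 to 13.36, so the chow arrays were not as close there.

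Slco1a4 (Oatp2), a carrier of bile acids and cardiac glycosides that inducers of drug metabolism are known to raise, read 5.22, 5.04, 4.79, 5.56 and 5.13 on high-fat arrays 1 to 5. The 3 chow arrays read 5.42, 5.13 and 5.47. High-fat array 4 was above all chow arrays and high-fat array 3 was the lowest of all. The difference was −0.20 ± 0.19 (SE, limma adjusted p = 0.636), with an interval from 1.56-fold lower to 1.19-fold higher. The high-fat arrays of slide 1 averaged 5.39 and those of slide 2 averaged 4.99, so that the gap between the high-fat slides (0.41) was larger than the difference between diets. Against chow, slide 1 alone gave 0.05 and slide 2 alone −0.36. With single arrays left out the difference ran from −0.30 (without chow array 2) to −0.11 (without high-fat array 3).

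Slco1b2 (Oatp4), the liver-typical OATP of rodents, read 3.46, 3.16, 3.34, 3.46 and 3.07 on high-fat arrays 1 to 5. Chow arrays 1 to 3 read 2.80, 3.53 and 3.70. Chow array 1 was the lowest of all 8 arrays and chow arrays 2 and 3 were the highest, so the chow range enclosed the high-fat range. The difference was −0.04 ± 0.22 (SE, limma adjusted p = 0.943), with an interval from 1.47-fold lower to 1.38-fold higher. Leaving out chow array 1 gave −0.32 and leaving out chow array 3 gave 0.14, and its sign also turned with quantile normalization (0.11) and a normexp background (0.05). Chow array 1 was not low for Slc10a1, Slc22a8 or Slco2a1.

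Slco2b1 is an OATP with broad tissue expression that carries sulfated steroids and drugs. It read 1.22, 1.14, 1.38, 1.67 and 1.49 on high-fat arrays 1 to 5. The values on chow arrays 1 to 3 were 1.63, 1.37 and 1.43, within the high-fat range. The difference was −0.10 ± 0.17 (SE, limma adjusted p = 0.8), with an interval from 1.39-fold lower to 1.21-fold higher. With single arrays left out it ran from −0.17 (without high-fat array 4) to −0.019 (without chow array 1). It was −0.27 with a normexp background (adjusted p = 0.322), where the median of all probes was −0.30.

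Slco2a1 encodes the prostaglandin transporter, which takes prostaglandins up for breakdown and is known from endothelium rather than from hepatocytes. It read −0.82, −0.81, −0.80, −0.68 and −0.84 on high-fat arrays 1 to 5. With chow, arrays 1 to 3 read −0.30, −0.57 and −0.36. Every high-fat array lay below every chow array, with the narrowest gap between high-fat array 4 and chow array 2. The means were −0.79 ± 0.06 (SD, n = 5) and −0.41 ± 0.15 (SD, n = 3), a difference of −0.38 ± 0.13 (SE, limma adjusted p = 0.158). Its unadjusted limma p was 0.0185. The interval ran from −0.68 to −0.08 on the log2 scale, the only one of the 8 that left out 0. The probe lay in brightness class 7 of 10, where the median of all probes was −0.03.

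For Slco2a1 the value was −0.40 after quantile normalization (adjusted p = 0.108), with the groups still apart, and −0.41 on the scan day that held both diets (adjusted p = 0.103). It was −0.34 with the high-fat arrays of slide 1 alone. With array weights it passed (−0.45, adjusted p = 0.0288, with 15.1% of all probes called). With a normexp background it was −0.17 (adjusted p = 0.462), which is 0.13 above the median of all probes in that setting, so its direction relative to the other probes turned there. With normexp and quantile normalization together it was −0.14 and the groups overlapped.

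Endothelial markers were measured beside Slco2a1. Of 8 listed, 5 were on the array under these symbols (Lyve1, Pecam1, Kdr, Cdh5 and Fcgr2b), all above background on all 8 arrays. 0 of 5 passed and 4 had negative differences, with a median of −0.14; Pecam1 had 0.19 (adjusted p = 0.703). Their summed level was 39.4 to 45.2 on the high-fat arrays and 46.4 to 48.4 on chow (two-sided exact permutation p = 0.0357; 0.214 adjusted over 8 marker lists). Chow array 1, with the highest Slco2a1 signal, had the lowest endothelial sum of the 3 chow arrays. Their part in the result was not tested.

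Slc22a7 (OAT2), a carrier of organic anions and nucleotides, read 2.75, 2.62, 2.69, 2.48 and 2.46 on high-fat arrays 1 to 5. The 3 chow arrays read, in order, 2.87, 2.62 and 2.84. Chow array 2 lay inside the high-fat range, and the other chow arrays above it. The difference was −0.17 ± 0.14 (SE, limma adjusted p = 0.549), with an interval from 1.41-fold lower to 1.11-fold higher.

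Slc22a8 (OAT3), best known as a basolateral carrier of the kidney tubule, read 5.55, 5.39, 4.94, 5.58 and 5.21 on high-fat arrays 1 to 5. Chow arrays 1 to 3 read 5.89, 5.04 and 5.60. The groups overlapped, with high-fat array 3 and chow array 2 lowest. The difference was −0.17 ± 0.23 (SE, limma adjusted p = 0.742), with an interval from 1.63-fold lower to 1.28-fold higher. Leaving out chow array 1 gave 0.016, and leaving out chow array 2 gave −0.41. On high-fat slide 1 it averaged 5.57 and on slide 2 it averaged 5.18. Of the 6 kidney markers listed, 5 were on the array and 3 were above background on all 8 arrays. Their summed level was 0.552 to 1.03 on the high-fat arrays and 0.535 to 0.78 on the chow arrays. Umod, the defining protein of the thick ascending limb, averaged −3.62 ± 0.61 (SD, n = 5) and −3.97 ± 0.13 (SD, n = 3).

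**Figure D3:**
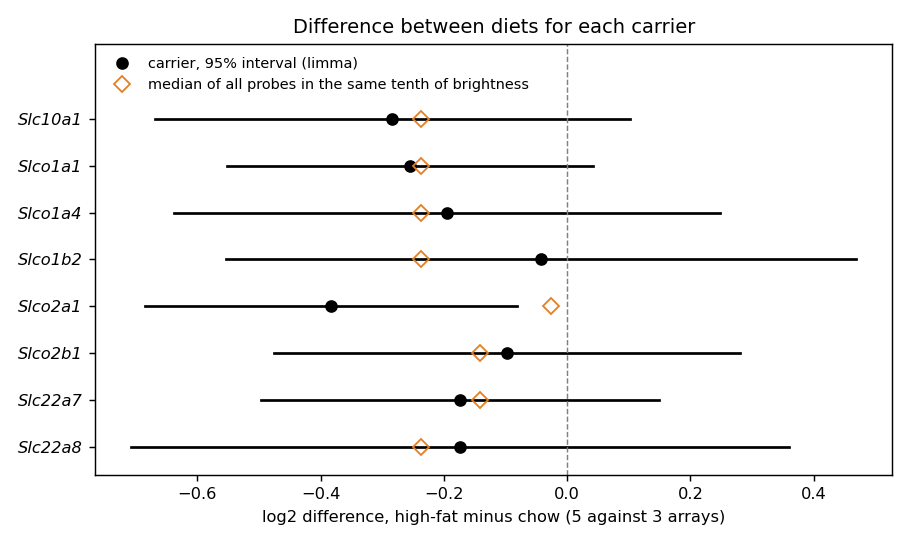
Difference of each carrier (x axis, log2, high-fat minus chow, 5 against 3 arrays) with its 95% interval from limma, and as open diamonds the median of all probes in the same brightness class (10 classes). The interval of Slco2a1 ends at −0.08 and the other 7 intervals include 0; the diamonds lie at −0.24 for the brightest class.

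**Figure D4:**
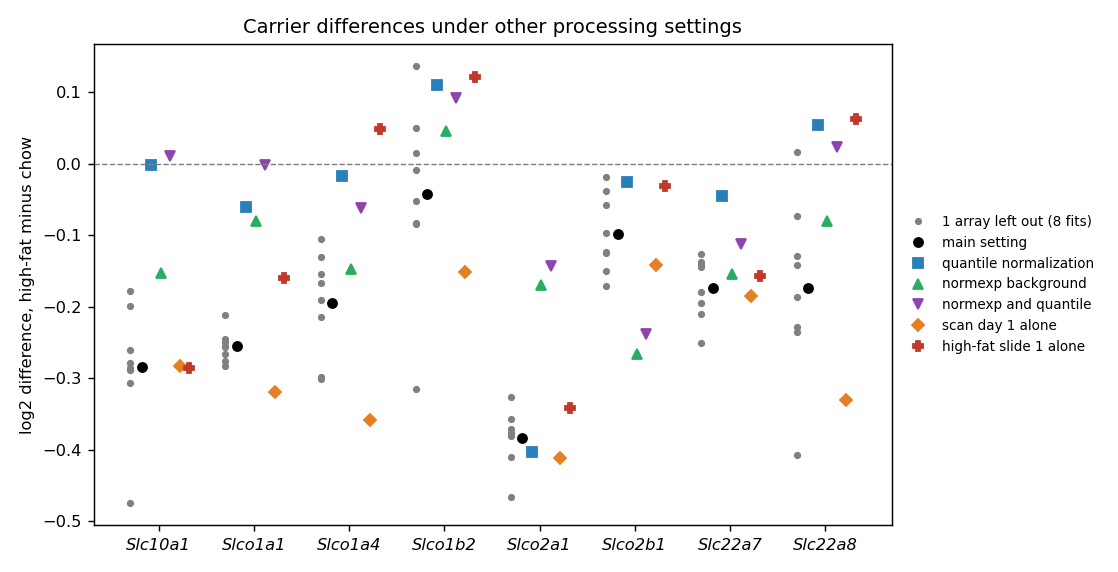
Difference of each carrier (y axis, log2, high-fat minus chow) in the main setting (black), with 1 array left out (grey, 8 fits) and under 5 other settings (coloured marks). Slco2a1 stays below 0 in all of these, from −0.47 to −0.14, while Slco1b2 runs from −0.32 to 0.14.

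The genes whose patterns were most like those of the carriers were found by Pearson's r over the 8 arrays among 12308 probes of other named genes above background on every array. For Slc10a1 they were Ttpa, the alpha-tocopherol transfer protein of the hepatocyte (r = 0.988), and Serpina3n, a plasma protease inhibitor (0.975). For Slco1a1 they were Fcgr2b, an Fc receptor of sinusoidal endothelium (0.989), and Mrpl35 (0.98). For Slco2a1 they were Srd5a3 (0.981) and Ppp1ca (0.981). The highest r was 0.984 for Slco1a4 (Syvn1), 0.961 for Slco1b2 (Irx1), 0.968 for Slco2b1 (Drap1) and for Slc22a7 (Acaa1a), and 0.97 for Slc22a8 (Lsm5). These values describe 8 points that share the same arrays and slides, and each is the highest of many.

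Other carriers of the same families and of organic ions gave 1 call. Of 30 listed, 29 were on the array and 24 were tested; 1 was higher (3.00% of all probes were), 0 were lower (0.453%), and the median difference was −0.02. Slc10a2 (ASBT), the sodium-dependent bile acid carrier of ileum and bile duct, averaged −4.61 ± 0.43 (SD, n = 5) and −4.57 ± 0.71 (SD, n = 3) and was above background on 7 arrays. The call was Slc22a2 (OCT2), typical of kidney, which was measured above background with high-fat diet (5 of 5 arrays) but not with chow (0 of 3; limma adjusted p = 0.049). No fold is given for Slc22a2, since its high-fat mean of −5.15 lay under the dimmest well-measured signals on chow (−5.09 to −4.55). On the high-fat arrays such signals reached lower (−6.39 to −6.13). Slc22a2 passed the filter on dim probes through the high-fat arrays alone, so its call cannot be told apart from this difference in detection. Leaving out single arrays kept the call in 1 of 8 fits, and it was −0.59 with a normexp background (adjusted p = 0.286). The Slc22a2 call was also lost after quantile normalization (adjusted p = 0.0881) and with slide as a random block (0.622). Its probe lay in the dimmest of the 10 brightness classes, where 6.91% of probes were called higher and the median difference was 0.53.

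Of the efflux pumps, which empty the hepatocyte into bile or back into blood, 11 of 14 listed genes were tested, 0 passed, and the median difference was 0.45. Abcb11 (BSEP), the bile salt export pump, averaged 2.29 ± 0.21 (SD, n = 5) and 2.24 ± 0.34 (SD, n = 3), a difference of 0.05 (limma adjusted p = 0.918). Abcc2 (MRP2), which exports bilirubin conjugates into bile, had a difference of −0.30 (adjusted p = 0.36). Abcc3 (MRP3), a basolateral pump, had 0.59 (adjusted p = 0.243) and was above background on 2 of 3 chow arrays.

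Of the regulators, 22 of 23 listed genes were tested, 0 passed, 13 had negative differences, and the median was −0.21. After quantile normalization 1 of these passed, beside 4.52% of all probes. It was Fgfr4, a receptor in the feedback on bile acid synthesis (−0.67, limma adjusted p = 0.04, against 0.0603 before), named after its value was seen. Nr1h4 (FXR), the bile acid receptor, had a difference of −0.46 ± 0.23 (SE, limma adjusted p = 0.299). Nr0b2 (SHP), which FXR induces and which represses Slc10a1, averaged 2.99 ± 0.68 (SD, n = 5) and 3.92 ± 0.65 (SD, n = 3), with adjusted p = 0.265. Hnf4a, the gene of HNF4 alpha, had −0.20 (adjusted p = 0.508).

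Of 12 enzymes of bile acid synthesis and conjugation 12 were tested and 1 passed, Hsd3b7, a dehydrogenase of the sterol ring, which was higher on high-fat diet (log2 difference 1.70 ± 0.29 SE, limma adjusted p = 0.0196), beside 3.00% of all probes called higher. Hsd3b7 was known from earlier results of these data to have passed when the list was chosen, so that share is not a fair background for it. Leaving out single arrays kept this call in 6 of 8 fits, all but those without chow array 1 or 3. The call was lost with a normexp background (limma adjusted p = 0.0689) or with slide as a random block (0.394). It was also lost with replicate number as a block (0.156) and with the high-fat arrays of slide 1 alone (0.0627). Cyp7a1, the rate-limiting enzyme of bile acid synthesis, had 0.43 ± 0.49 (SE, adjusted p = 0.685), and Cyp8b1, which makes the cholic acid branch, −0.59 ± 0.21 (SE, adjusted p = 0.167).

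Genes typical of the zones of the liver lobule were counted, since some carriers are known to be zoned. Of 8 periportal genes 8 were tested and 2 fell, Gls2 (−0.98 ± 0.18 SE, limma adjusted p = 0.0227) and Ass1 (−0.84 ± 0.17 SE, adjusted p = 0.0363), beside 0.453% of all probes called lower. The median of the list was −0.35. Gls2 and Ass1 lay in the brightest class, where 0.936% of probes were called lower and the median difference was −0.24. With slide as a random block neither passed (limma adjusted p = 0.35 and 0.512), nor with replicate number as a block (0.17 and 0.197). With a normexp background Gls2 passed (0.0399) and Ass1 did not (0.125). Leaving out single arrays kept the call of Gls2 in 4 of 8 fits and that of Ass1 in 1. Sds, a periportal serine dehydratase also named after its value was seen, passed without high-fat array 4 (adjusted p = 0.0481, against 0.0746 with all arrays). In that fit 2.40% of all probes were called. Gls2 and Ass1, like Hsd3b7, were known from earlier results of these data to have passed when their lists were chosen. Of 8 pericentral genes 7 were tested, 0 passed and the median was −0.25. Glul, the pericentral glutamine synthetase, was named after its value was seen. It passed after quantile normalization (1.25, limma adjusted p = 0.0275) and without high-fat array 5 (0.0449), against 0.0665 with all arrays. Of all probes, 4.52% were called after quantile normalization and 2.32% without high-fat array 5.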

How the data were processed

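Per the submitters' processing notes, scans were read with Agilent Feature Extraction 11.0.1.1. Per the file headers, the deposited processed signal is an intensity, corrected for background and for spatial trends on its own array and not scaled between arrays. The authors' deposited value table holds log2 values, which correlated with the same array's log2 signal at 0.995 to 0.999. How it was scaled is not stated, but its 75th percentile was 9.273 on all 8 arrays and its medians were 6.423 to 6.424. Its carrier differences lay close to those after quantile normalization (Slco2a1 −0.405 and −0.403), so it is not a separate check of that setting. Outlier spots were left out (331 to 550 for each array, 3 of them spots of the carriers) and 0 spots were saturated. Processed signals were averaged over the spots of a probe on the log2 scale and set relative to the 75th percentile of their array. Probes with at least 0.5 of their spots well above background on at least 3 of 8 arrays were kept (25627 of 30367). Of all probes, 18005 matched 15168 rat symbols on GRCr8.

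Diets were compared with limma 3.58.1 in R 4.3.3 (lmFit and eBayes, two-sided) on probes, with Benjamini-Hochberg adjustment over all probes kept and a threshold of 0.05; the fit was tested on simulated data. No pair of arrays was identical (0 pairs). All probes of the carriers are described, and up to 4 called genes of each list, with central genes of each list named whatever their p (some of these, and a further promoter motif that was searched, are not reported here); a list gene is represented by its probe of highest mean. Some genes stand in more than 1 list. Brightness classes (10 of equal size) were cut on the mean over 8 arrays. The carriers, lists and most tests were chosen with earlier results of these data known. Alternatives were normexp (offset 50) on the median signal, quantile normalization, other filters, 1 probe for each gene, the authors' table, array weights, slide, scan day and replicate number as blocks, and single arrays left out.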

Additional observations from a re-analysis of the deposited data

Results flagged for a closer look

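On high-fat array 4 Slco2a1 stood at −0.68, apart from the other high-fat arrays, which lay between −0.84 and −0.80. The gap was 0.745 of the range of the group, above the limit set for a group of 5. Chance flags about 1 in 20 groups, and 8 carriers were examined.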

How the results depend on the processing

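No carrier passed in 20 of the 21 alternatives; with array weights 1 did, Slco2a1. The number of all probes called, 884, moved to 136 with a normexp background, 513 with only probes above background on all 8 arrays, 2317 with normexp and quantile normalization, 3866 with array weights, 76 with slide as a random block, 4106 with scan day as a block, 3159 with the arrays of scan day 1 alone, and 402 to 864 with single arrays left out. In an alternative chosen after seeing the data, the high-fat arrays of slide 1 alone against chow gave 2003. The higher and lower calls, 768 and 116, became 1114 and 1203 with normexp and quantile normalization, 852 and 307 after quantile normalization, 898 and 339 in the authors' table, 371 and 142 with probes above background on all 8 arrays, 762 and 446 without a filter on dim probes, and 2308 and 1558 with array weights.

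Slco1a1, Slco2a1, Slco2b1 and Slc22a7 stayed negative in all 21 alternatives, on the scale of each setting. The other filters and 1 probe for each gene could not move the difference of a carrier. Scan day as a block gave the same differences as scan day 1 alone. The authors' table lay close to quantile normalization (Slco1a1 −0.062 and −0.061), so the 21 are not separate checks. Slc10a1 turned to 0.011 with normexp and quantile normalization. Slco1a4 turned to 0.049 with slide 1 alone. Slco1b2 turned to 0.045 (normexp), 0.11 (quantile), 0.092 (both), 0.11 (authors' table), 0.070 (array weights) and 0.12 (slide 1 alone), and ran from −0.32 to 0.14 with single arrays left out. Slc22a8 turned to 0.054 (quantile), 0.023 (normexp and quantile), 0.055 (authors' table) and 0.062 (slide 1 alone), and ran from −0.41 to 0.016 with single arrays left out. The causes were not tested. With slide 1 alone the median of all probes was −0.13.

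The labels do not state whether same-numbered samples of the diets were paired. Their deviations correlated at 0.0345 to 0.0614. The most alike high-fat array was 5, 3 and 3 for chow arrays 1, 2 and 3, and these values cannot decide whether samples were paired. With the replicate block, over the 6 arrays numbered 1 to 3, limma called 0 probes and 0 carriers (3435 probes at an unadjusted p under 0.05). Signal over background and the number of arrays limit what could be detected: the intervals of the carriers allow differences of up to 1.63-fold lower for Slc22a8 and 1.38-fold higher for Slco1b2.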

Other observations

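The other marker lists were measured for the cells and tissues a liver sample can hold, and 0 genes passed in each. The 8 Kupffer cell and macrophage markers had a median difference of 0.08 and a summed level of 21.6 to 31.0 on high-fat and 27.04 to 37.7 on chow arrays. The brightest of them, Clec4f, weighs most in that sum and had a difference of −0.59 (limma adjusted p = 0.088), while 3 of the 8 were negative. The 6 stellate cell markers had a median of −0.18 and sums of 7.4 to 8.33 and 6.56 to 8.93. Of 6 cholangiocyte markers 5 were tested (median −0.01), with sums of 0.476 to 0.814 and 0.599 to 0.919. Adipose markers summed to 2.38 to 3.12 and 3.02 to 3.81, nearly all of it from Cfd, and Adipoq was above background on 0 arrays. Exocrine pancreas markers summed to 0.169 to 0.375 and 0.227 to 0.519. The exact permutation p adjusted over the 8 lists was 0.214 at the lowest. The endothelial list had this value although its sums did not overlap between the diets. With 56 splits of the 8 arrays, this test could hardly let a single list pass.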
